A study of Mus musculus with 6 samples.

Results

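Complement genes transcribed inside primary ovarian tumors were examined through 9 genes, listed by name with earlier results of these data known. They are *C1ra*, *C1s1*, *C4b*, *C2*, *C3* and *Cfb*, which encode components, *Serping1*, which encodes the C1 inhibitor, and the receptor genes *C3ar1* and *C5ar1*. All 9 are among the 20076 genes of the table and all 9 passed the filter on low values, which kept 19667 genes. Bulk polyA-enriched RNA came from the primary tumors of 3 C57BL/6 wild-type (WT) and 3 *Tgm2* knockout mice, 6 weeks after injection of ID8 Trp53-/- Brca1-/- cells into the bursa around the ovary. ID8 is a mouse ovarian surface epithelial cancer line, and *Trp53* and *Brca1* had been knocked out in it with CRISPR-Cas9, so the cancer cells of both groups carried the same deletions. No *Tgm2* deletion is stated for the cancer cells. The knockout was carried by the host, with no restriction to a cell type stated, and the mice were between 6 and 10 weeks old. Which cell type made a transcript cannot be told from bulk RNA, and fewer cells of a type cannot be told apart from less RNA per cell. None of the 9 genes passed the limma test between the groups, where 0.102% of all genes tested did, all higher in knockout tumors. At an unadjusted p under 0.05, 2 of the 9 were higher and 0 lower in knockout tumors, against 3.40% and 2.38% of all genes. Of the 9, *C4b* and *Serping1* had the largest log2 fold changes, 0.68 and 0.70, while *C3*, the most abundant of them, had -0.17.

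Complement is a cascade of plasma and tissue proteins that marks surfaces for uptake and lysis and releases small inflammatory peptides. In the classical pathway C1q binds antibody or other ligands, and the protease C1r then activates the protease C1s. C1s cleaves C4 and C2, which together form the enzyme that cleaves C3. Factor B takes the place of C2 in the alternative pathway, which amplifies the deposition of C3 fragments. The peptides C3a and C5a act on receptors of myeloid cells. The liver makes most of the complement in blood, but macrophages, fibroblasts, adipocytes and epithelial cells also transcribe components, so that a tumor can hold a local source.

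Several of the 9 genes lie in a pair of clusters. On chromosome 6 of GRCm38, *C1ra* (124512405 to 124523443, plus strand) and *C1s1* (124530345 to 124542359, minus strand) lie beside each other. On chromosome 17, *C4b* (34728380 to 34743882), *Cfb* (34856374 to 34862518) and *C2* (34862604 to 34898265) lie on the minus strand in the class III region of the major histocompatibility complex. *C3* lies farther along chromosome 17 (57203970 to 57228136), *Serping1* on chromosome 2 (84765387 to 84775444), *C3ar1* on chromosome 6 (122847138 to 122856161) and *C5ar1* on chromosome 7 (16246743 to 16259540), all on the minus strand.
Promoter sequence was held for 5 of the 9 genes in the RefSeq windows of GRCm38.p6; *C4b*, *C2*, *Cfb* and *Serping1* had none there. The 250 bases before the start of transcription are shown for these 5 because *C3* had the highest level of the 9, because *C1ra* and *C1s1* encode partner proteases, and because *C3ar1* and *C5ar1* kept a nearly constant ratio over the tumors, as described further on. They read 5′ to 3′ along the strand of the gene, and capitals mark the matches to the motifs searched. RefSeq and GENCODE differ in some starts: of the 250 bases, 216 of the *C1ra* window, 202 of the *C5ar1* window and 4 of the *C3ar1* window lie inside the GENCODE gene given above, including the motif matches of *C1ra* and *C5ar1*. The *C3* window and the *C1s1* window shown do not enter theirs, and *C1s1* had 2 overlapping windows, of which the first is shown.
C3, chr17:57228137-57228386, minus strand: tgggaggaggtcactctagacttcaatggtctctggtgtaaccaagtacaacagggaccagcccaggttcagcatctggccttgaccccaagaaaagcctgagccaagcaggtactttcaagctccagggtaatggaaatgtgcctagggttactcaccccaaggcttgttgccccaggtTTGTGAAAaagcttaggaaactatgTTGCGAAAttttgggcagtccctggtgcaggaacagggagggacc
C1ra, chr6:124512371-124512620, plus strand: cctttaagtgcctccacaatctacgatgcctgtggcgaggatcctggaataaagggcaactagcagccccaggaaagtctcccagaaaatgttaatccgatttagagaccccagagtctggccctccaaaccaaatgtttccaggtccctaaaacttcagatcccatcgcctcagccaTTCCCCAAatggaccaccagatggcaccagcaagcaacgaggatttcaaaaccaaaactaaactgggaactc
C1s1, chr6:124542360-124542609, minus strand: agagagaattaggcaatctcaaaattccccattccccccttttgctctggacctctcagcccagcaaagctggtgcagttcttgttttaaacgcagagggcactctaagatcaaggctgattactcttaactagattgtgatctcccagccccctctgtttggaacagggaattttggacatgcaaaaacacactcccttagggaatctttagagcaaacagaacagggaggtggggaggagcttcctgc
C3ar1, chr6:122856158-122856407, minus strand: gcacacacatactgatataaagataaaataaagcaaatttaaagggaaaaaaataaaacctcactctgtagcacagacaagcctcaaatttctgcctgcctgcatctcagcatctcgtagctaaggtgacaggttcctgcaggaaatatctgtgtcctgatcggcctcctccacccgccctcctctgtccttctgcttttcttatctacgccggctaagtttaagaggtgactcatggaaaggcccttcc
C5ar1, chr7:16259339-16259588, minus strand: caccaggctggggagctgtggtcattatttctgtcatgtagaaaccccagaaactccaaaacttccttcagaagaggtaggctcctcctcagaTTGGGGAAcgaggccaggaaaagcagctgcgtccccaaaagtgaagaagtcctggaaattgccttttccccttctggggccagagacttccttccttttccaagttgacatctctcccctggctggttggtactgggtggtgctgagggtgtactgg
The motifs, searched on both strands, were the STAT site TTCNNNGAA, the interferon-stimulated response element (TTTC, any 2 bases, TTTC), the NF-kB site GGGANTTCC, the C/EBP site TTGNGNAA and the PU.1 core GAGGAA. Only the C/EBP letters were found, with 2 matches before *C3* (TTGTGAAA, starting 70 bases before the start, and TTGCGAAA, 45 bases before it) and 1 match each before *C1ra* (TTCCCCAA, which is the motif read on the other strand, 72 bases) and *C5ar1* (TTGGGGAA, 157 bases). No 2 of these matches overlapped. Of the 32851 windows of the same length, 11.7% held the C/EBP letters, against 7.02% for the STAT site, 2.98% for the interferon-stimulated element, 1.43% for the NF-kB site and 23.3% for the PU.1 core.

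Values are normalized counts, which are estimated read counts per gene scaled for depth, and they summed to between 32316613 and 37717165 in a tumor. Where 3 values are given for a group, they are those of its tumors 1, 2 and 3 in that order. A gene was called when its adjusted p-value was under 0.05 and its log2 fold change, Tgm2 knockout over WT on log2(value + 1), was over 1 in size. Of all genes tested, 20 were called higher in *Tgm2* knockout tumors (0.102%) and 0 lower (0%), and 491 (2.5%) and 305 (1.55%) had an unadjusted p under 0.05 with the same fold limit. *Tgm2* itself was 14978, 12155 and 13180 across the WT group and 5853, 6071 and 8157 across the knockout group (log2 fold change -1.02, standard error 0.22, limma adjusted p = 0.391), with every knockout tumor below every WT tumor. Of the ovarian surface genes, *Wt1* was 13131 to 20641 over the tumors, with overlapping groups. *Krt8* was 14387 to 21948 in WT and 10373 to 14318 in knockout tumors, without overlap. Of 10 epithelial and ovarian surface markers, 2 lay below WT without overlap, where 5.33% of all genes did. None of the 10 lay above WT without overlap, where 5.18% of all genes did. WT tumor 3 stood apart from the other tumors in epithelial genes, with 8047 normalized counts of *Epcam* against 90.5 to 1307 elsewhere, so fold changes without it are given beside the results it touches. The labels number the tumors 1 to 3 in each group and do not state separate litters or days, so p-values measure the spread between these samples.

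**Figure D1:**
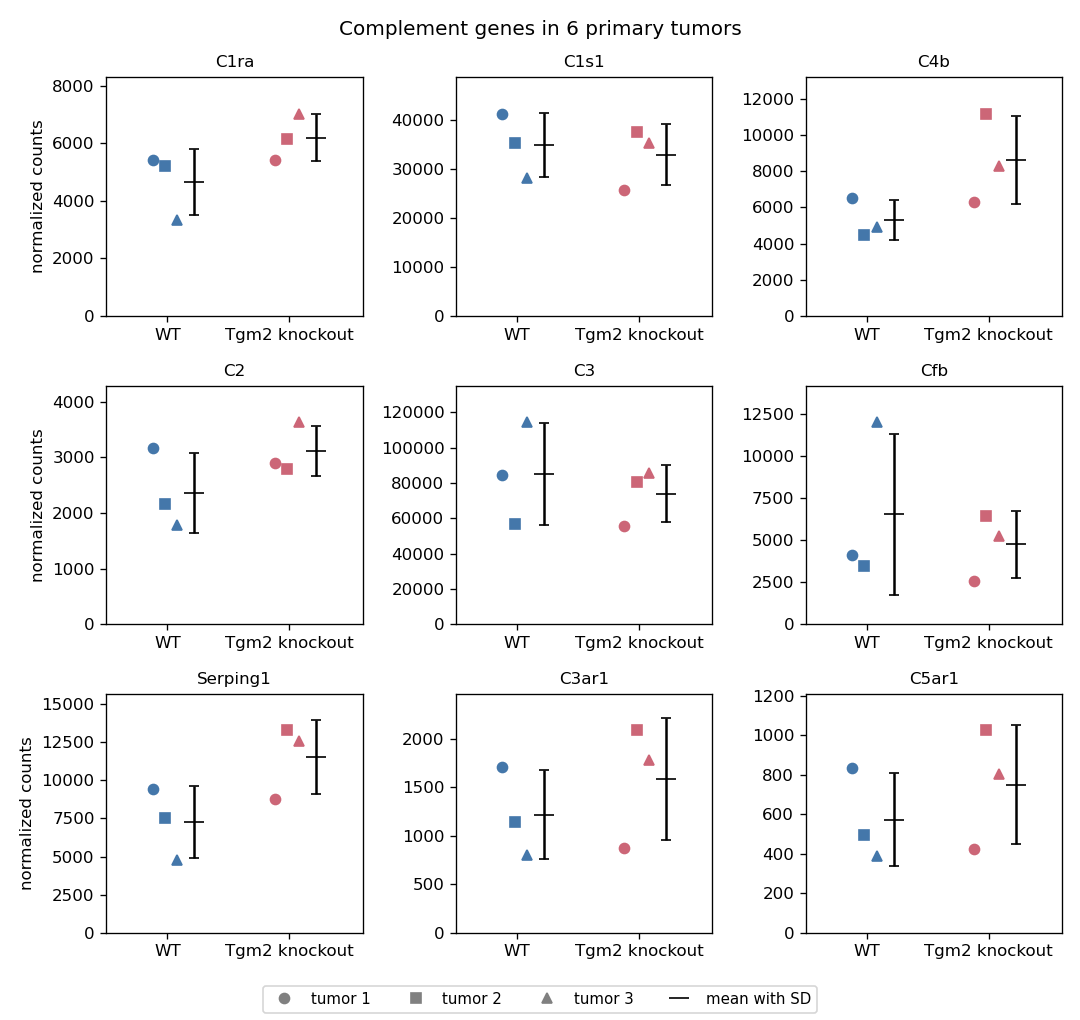
Normalized counts (y axis, from 0) of the 9 complement genes in WT and Tgm2 knockout tumors (x axis), with 1 symbol per tumor, the same symbol for the same replicate number, and the mean with its SD (n = 3). The groups overlap in every panel but *C1ra*, and WT tumor 3 (triangle) is the highest of the 6 for *C3* and *Cfb* and the lowest of the 6 for *C1ra*, *C2*, *Serping1*, *C3ar1* and *C5ar1*.

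The comparison of the hosts asked first whether the genes that start the classical pathway differed between hosts. *C1ra*, which encodes the protease that activates C1s, was 5412, 5203 and 3341 across the WT group and 5424, 6142 and 7034 across the knockout group. Every knockout tumor lay above every WT tumor, but knockout tumor 1 and WT tumor 1 differed by only a few counts. Its log2 fold change was 0.44 (95% confidence interval -0.11 to 0.99, limma adjusted p = 0.889), and 0.22 without WT tumor 3. *C1ra* was the only 1 of the 9 genes without overlap between the groups, with the knockout tumors above, where 5.18% of all genes tested lay, against 0 of the 9 below, where 5.33% lay, or 10.5% in both directions. This count moved with some scalings: *C4b* and *Serping1* joined *C1ra* after quantile normalization (3 of the 9, against 11.1% of all genes) and with equal column sums (3 of the 9, against 10.4%). The count stayed at 1, *C1ra*, after median-of-ratios rescaling (10.5% of all genes). It was 4 of the 9 without WT tumor 1 (24.9% of all genes) and 4 without knockout tumor 1 (22%). *C1s1*, which encodes the protease that cleaves C4 and C2, was 41220, 35247 and 28029 across the WT group and 25737, 37393 and 35312 across the knockout group. The groups overlapped, with a log2 fold change of -0.09 (95% confidence interval -0.77 to 0.60, limma adjusted p = 0.975), and its sign changed without WT tumor 1 (0.04) and without knockout tumor 1 (0.08). Per kilobase of the longest coding transcript, *C1s1* had a mean of 11481 normalized counts and *C1ra* 1820, which placed them at ranks 201 and 1428 of 16583 genes.

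*C4b*, which encodes C4, the first substrate of C1s, was 6538, 4453 and 4908 across the WT group and 6319, 11176 and 8301 across the knockout group. Knockout tumors 2 and 3 lay above all WT tumors, while knockout tumor 1 lay just below WT tumor 1. The mean was 5300 ± 1096 in WT and 8599 ± 2442 in knockout tumors (SD, n = 3 tumors per group), with a log2 fold change of 0.68 and a standard error of 0.26. It had an unadjusted p of 0.0323 and did not pass adjustment over all genes (limma adjusted p = 0.819), and without knockout tumor 2 the log2 fold change was 0.47. *C2*, which encodes the protease subunit of the classical C3 convertase, was 3157, 2152 and 1775 across the WT group and 2904, 2796 and 3632 across the knockout group. WT tumor 1 lay within the knockout range and the other WT tumors below it (log2 fold change 0.43, 95% confidence interval -0.14 to 1.0, limma adjusted p = 0.891), and without WT tumor 3 the value was 0.25.

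*C3*, on which all pathways converge, was the most abundant of the 9 in every tumor on the scale of normalized counts. It was 84702, 56695 and 114493 across the WT group and 55789, 80354 and 85821 across the knockout group, or between 0.160% and 0.338% of all normalized counts of a tumor. WT tumor 3 was the highest and knockout tumor 1 the lowest of the 6, and the groups overlapped. Its log2 fold change was -0.17 (95% confidence interval -1.13 to 0.79, limma adjusted p = 0.962), and its sign changed without WT tumor 3 (0.07) and without knockout tumor 1 (0.02). Per kilobase *C3* had a mean of 15507 normalized counts, rank 143 of 16583 genes. *Cfb*, which encodes factor B, was 4111, 3462 and 12025 across the WT group and 2564, 6432 and 5249 across the knockout group. WT tumor 3 alone lay far above the rest, and *Cfb* had the widest range of the 9 genes, 4.69-fold from the lowest to the highest tumor. Its log2 fold change was -0.33 (95% confidence interval -1.49 to 0.83, limma adjusted p = 0.939), and its sign changed without WT tumor 3 (0.23) and without knockout tumor 1 (0.07).

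*Serping1* encodes the C1 inhibitor, which blocks C1r and C1s and also inhibits kallikrein of the contact system. It was 9460, 7523 and 4799 across the WT group and 8795, 13280 and 12577 across the knockout group. As for *C4b*, knockout tumors 2 and 3 lay above all WT tumors and knockout tumor 1 lay between WT tumors 1 and 2. The mean was 7260 ± 2341 in WT and 11550 ± 2412 in knockout tumors (SD, n = 3 tumors per group), with a log2 fold change of 0.70, a standard error of 0.30, an unadjusted p of 0.0452 and a limma adjusted p of 0.848. Without WT tumor 3 the log2 fold change was 0.43. *C4b* and *Serping1* were the 2 of the 9 genes with an unadjusted p under 0.05 and a higher mean in knockout tumors, where 3.40% of all genes met that rule, and 0 of the 9 met it in the other direction, against 2.38%. None of the 9 passed a fold change over 1 with either p. Per kilobase *Serping1* had a mean of 5320 normalized counts, rank 434 of 16583 genes.

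The receptor for C3a, *C3ar1*, was 1705, 1146 and 806 across the WT group and 877, 2086 and 1783 across the knockout group. The receptor for C5a, *C5ar1*, was 836, 493 and 389 across the WT group and 425, 1024 and 801 across the knockout group. Both had their lowest value in WT tumor 3, the next lowest in knockout tumor 1 and the highest in knockout tumor 2, and the groups overlapped. Their log2 fold changes were 0.35 (95% confidence interval -0.53 to 1.23, limma adjusted p = 0.913) and 0.37 (95% confidence interval -0.55 to 1.29, limma adjusted p = 0.912), or 0.09 and 0.13 without WT tumor 3 and 0.10 for both without knockout tumor 2. They were the lowest of the 9 genes per kilobase, with means of 325 and 260 normalized counts. Over the 9 genes, 6 had a log2 fold change above 0 and 3 below, with a median of 0.37, where 47.3% of all genes lay above 0 and the median of all genes was -0.03. The median of the 9 was 0.10 without knockout tumor 2, 0.22 without WT tumor 3 and 0.63 without WT tumor 1.

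The 9 genes did not all vary together across tumors in a single pattern. WT tumor 3 held the highest value of 2 genes (*C3*, *Cfb*) and the lowest of 5 (*C1ra*, *C2*, *Serping1*, *C3ar1*, *C5ar1*). Knockout tumor 1 held the lowest value of 3 genes (*C1s1*, *C3*, *Cfb*) and knockout tumor 2 the highest of 4 (*C4b*, *Serping1*, *C3ar1*, *C5ar1*). The mean of the 9 standardized log2 values was 0.38, -0.54 and -0.69 across the WT group and -0.61, 0.78 and 0.68 across the knockout group, so that each group held tumors on both sides of 0. As a description over 6 tumors, with no test, *C5ar1* (Pearson's r = 0.98) and *C3ar1* (r = 0.97) lay nearest to that mean, of which each is a part, and *C3* (r = 0.25) and *Cfb* (r = 0.09) farthest from it. Between them, *C1ra*, *C1s1*, *C4b*, *C2* and *Serping1* had r from 0.72 to 0.87 to that mean. The genes outside complement nearest to the mean of the 9, of 12956 with a mean of at least 100, were *Pld4*, *Tlr13*, *Adgre5*, *Il10ra* and *Csf1r*, with r between 0.981 and 0.990. *Csf1r* encodes the receptor through which macrophages receive their growth factor, and *Tlr13* an endosomal sensor of bacterial RNA.

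**Figure D2:**
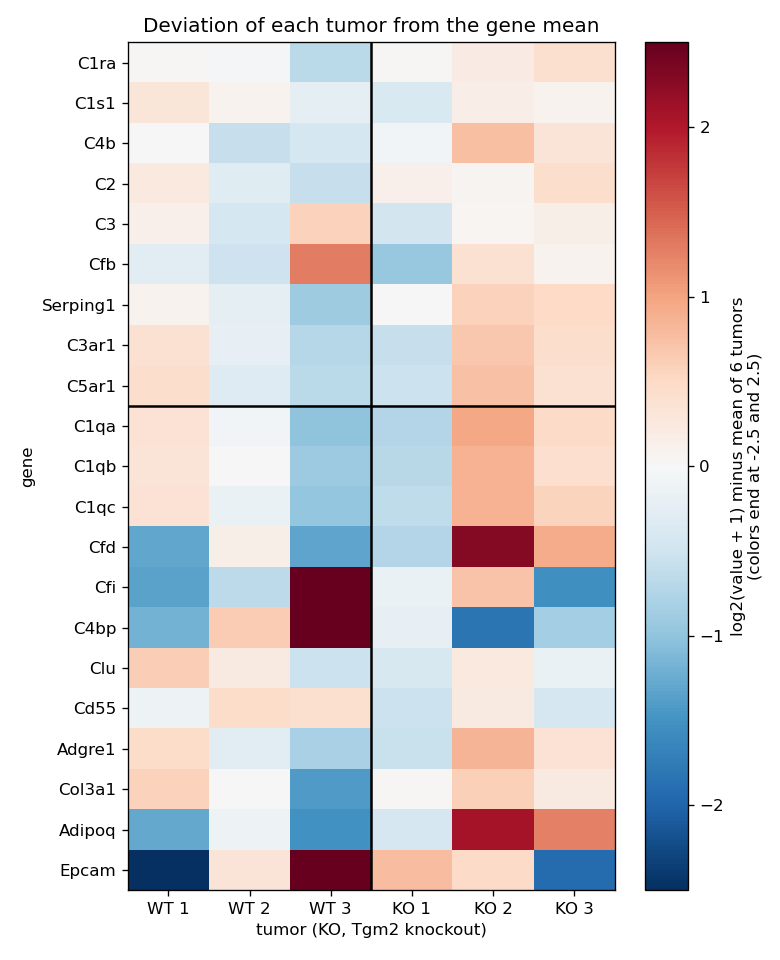
Deviation of each tumor from the mean of the 6 tumors on log2(value + 1) (color) for the 9 complement genes above the line and for other complement and marker genes below it. *Cfb* in WT tumor 3 lies 1.28 above its mean, beside *Epcam*, *Cfi* and *C4bp* at 3.40, 2.97 and 3.42, while *C3ar1*, *C5ar1*, *Adgre1* and the C1q genes are all below their mean in WT tumor 3 and knockout tumor 1.

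Ratios of 2 genes within a tumor do not depend on the scaling between tumors, so the 36 pairs of the 9 genes were compared as a description. The *C3ar1* to *C5ar1* ratio was 2.04, 2.32 and 2.07 across the WT group and 2.07, 2.04 and 2.23 across the knockout group. It varied 1.14-fold, the least of the 36 pairs, although each receptor alone varied about 2.6-fold (2.59 and 2.63). *C3ar1* also kept close to *Adgre1*, which encodes the macrophage antigen F4/80, at 0.516 to 0.631 of its value, and *C5ar1* at 0.253 to 0.304 of it. The groups overlapped in both ratios. Against *Cd68* instead, another macrophage gene, the ratio of *C3ar1* was 0.610 to 0.724 in WT and 0.755 to 0.877 in knockout tumors, without overlap. Against *Csf1r* it was 0.213 to 0.304 in WT and 0.180 to 0.216 in knockout tumors, with overlap. Its ratios to *C1qa* and to the leukocyte gene *Ptprc* overlapped as well. Of the *C5ar1* ratios, that to *Cd68* alone did not overlap, at 0.294 to 0.355 in WT and 0.365 to 0.419 in knockout tumors. Among all gene pairs of the background given next, 11.6% did not overlap, so nothing is concluded from the *Cd68* ratios.

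Of the 36 pairs, 5 (13.9%) did not overlap between the groups, close to the 11.6% of all pairs of the 12940 genes with a mean of at least 100 and a value above 0 in each tumor. The *C1s1* to *Serping1* ratio was 4.36, 4.69 and 5.84 across the WT group and 2.93, 2.82 and 2.81 across the knockout group. Its mean was 4.96 ± 0.779 in WT and 2.85 ± 0.0663 in knockout tumors (SD, n = 3). The *C1ra* to *C1s1* ratio was 0.131, 0.148 and 0.119 across the WT group and 0.211, 0.164 and 0.199 across the knockout group. The *C1s1* to *C4b* ratio was 5.71 to 7.92 in WT and 3.35 to 4.25 in knockout tumors. The *C3* to *Serping1* ratio was 8.95, 7.54 and 23.9 against 6.34, 6.05 and 6.82, and the *C4b* to *C3* ratio was 0.0429 to 0.0785 against 0.0967 to 0.139. These 5 pairs share *C1s1*, *C4b*, *C3* and *Serping1* among them, so they are not 5 separate observations.

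**Figure D3:**
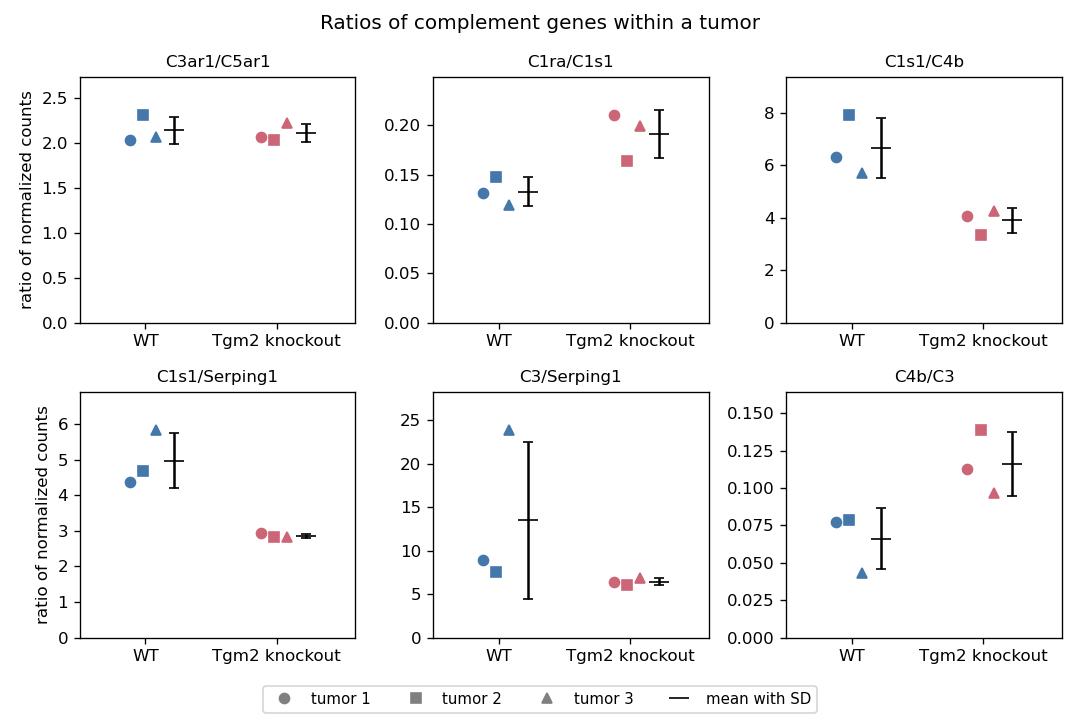
Ratios of normalized counts within each tumor (y axis, from 0) for the *C3ar1* to *C5ar1* pair and the 5 pairs without overlap between WT and Tgm2 knockout tumors (x axis), with 1 symbol per tumor and the mean with its SD (n = 3). The receptor pair lies between 2.04 and 2.32 in every tumor, and *C1s1* to *Serping1* lies at 2.81 to 2.93 in the knockout tumors and at 4.36 to 5.84 in the WT tumors.

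Of 53 other complement genes on a list of initiators, regulators, terminal components and receptors, 47 were in the table and tested. None of them passed the limits in either direction, and at an unadjusted p under 0.05 with the fold limit 3 were higher (*Cfd*, *C6*, *Colec11*) and 3 lower (*Cd55b*, *Masp2*, *Colec10*) in knockout tumors, or 6.38% in each direction, where 2.5% and 1.55% of all genes were. Their median log2 fold change was 0.10.
Among the initiators, the C1q chain genes *C1qa*, *C1qb* and *C1qc*, which macrophages transcribe, had log2 fold changes of 0.48, 0.39 and 0.53 with overlapping groups (limma adjusted p between 0.901 and 0.919). *C1qa* was 15742, 11663 and 6142 across the WT group and 7426, 23881 and 17155 across the knockout group, with the low values in the same tumors as for the receptors. *Colec11*, a lectin of the lectin pathway, was 49.4 to 86.3 in WT and 130 to 168 in knockout tumors (log2 fold change 1.24, limma adjusted p = 0.782). *Masp2*, a lectin pathway protease, was listed at 5.67, 1.04 and 6.12 in the WT tumors and at 0 in all 3 knockout tumors, and *Colec10* was at or below 11.1 in every tumor, so both rest on a few counts.
*Cfd*, which encodes factor D, the protease of the alternative pathway that adipocytes secrete as adipsin, was 5188, 14147 and 5127 across the WT group and 7697, 62686 and 24263 across the knockout group. It varied 12.2-fold over the tumors, and its groups overlapped (log2 fold change 1.65, limma adjusted p = 0.861). *Cfp*, which encodes properdin, had a log2 fold change of 0.49.

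Of the terminal genes, which form the membrane attack complex, 6 were tested and none was above 400 in any tumor. *C6* was 34.7 to 111 in WT and 151 to 400 in knockout tumors (log2 fold change 1.62, limma adjusted p = 0.794) and *Hc*, which encodes C5, was 50.3 to 104 against 125 to 150 (0.82, adjusted p = 0.889), both without overlap. *C9*, named after its values were seen, was 4.24 to 11.3 in WT and 0 to 3.10 in knockout tumors, without overlap in the other direction. The 6 genes thus held 2 without overlap above WT and 1 below, *C9*, which rests on a few counts. Of all genes, 5.18% and 5.33% were. All 47 other complement genes held 5 above (10.6%) and 4 below (8.51%). In both directions together, the initiators held 4 of 12, the fluid phase regulators 1 of 9 and the membrane regulators 1 of 10. The alternative pathway and receptor genes held 0 of 2 and 0 of 8. *C8g* had a log2 fold change of -0.14. Among the fluid phase regulators, *Clu*, which encodes clusterin, was the most abundant complement gene per kilobase (rank 43 of 16583) and had a log2 fold change of -0.21. *Cfi*, the protease that inactivates C3b, was 3027 in WT tumor 3 and 133 to 637 in the others, and *C4bp*, chosen after its values were seen, was 302 in WT tumor 3 and 6.93 to 43.2 in the others, so *Cfb*, *Cfi* and *C4bp* were all highest in the tumor with the most *Epcam*.
Of 10 membrane regulators, which protect host cells, 4 had a log2 fold change above 0 and 6 below. *Cd55*, *Cr1l* and *Cd59a* had -0.50, -0.25 and 0.10 with overlapping groups, and *Cd55b* was 39.6 to 96.7 in WT and 13.5 to 19.2 in knockout tumors (-1.73, limma adjusted p = 0.759). The receptor genes *C1qbp*, *Itgb2* and *Itgax*, the last 2 of which encode the chains of complement receptor 4, had 0.03, 0.79 and 0.53 with overlapping groups.

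**Figure D4:**
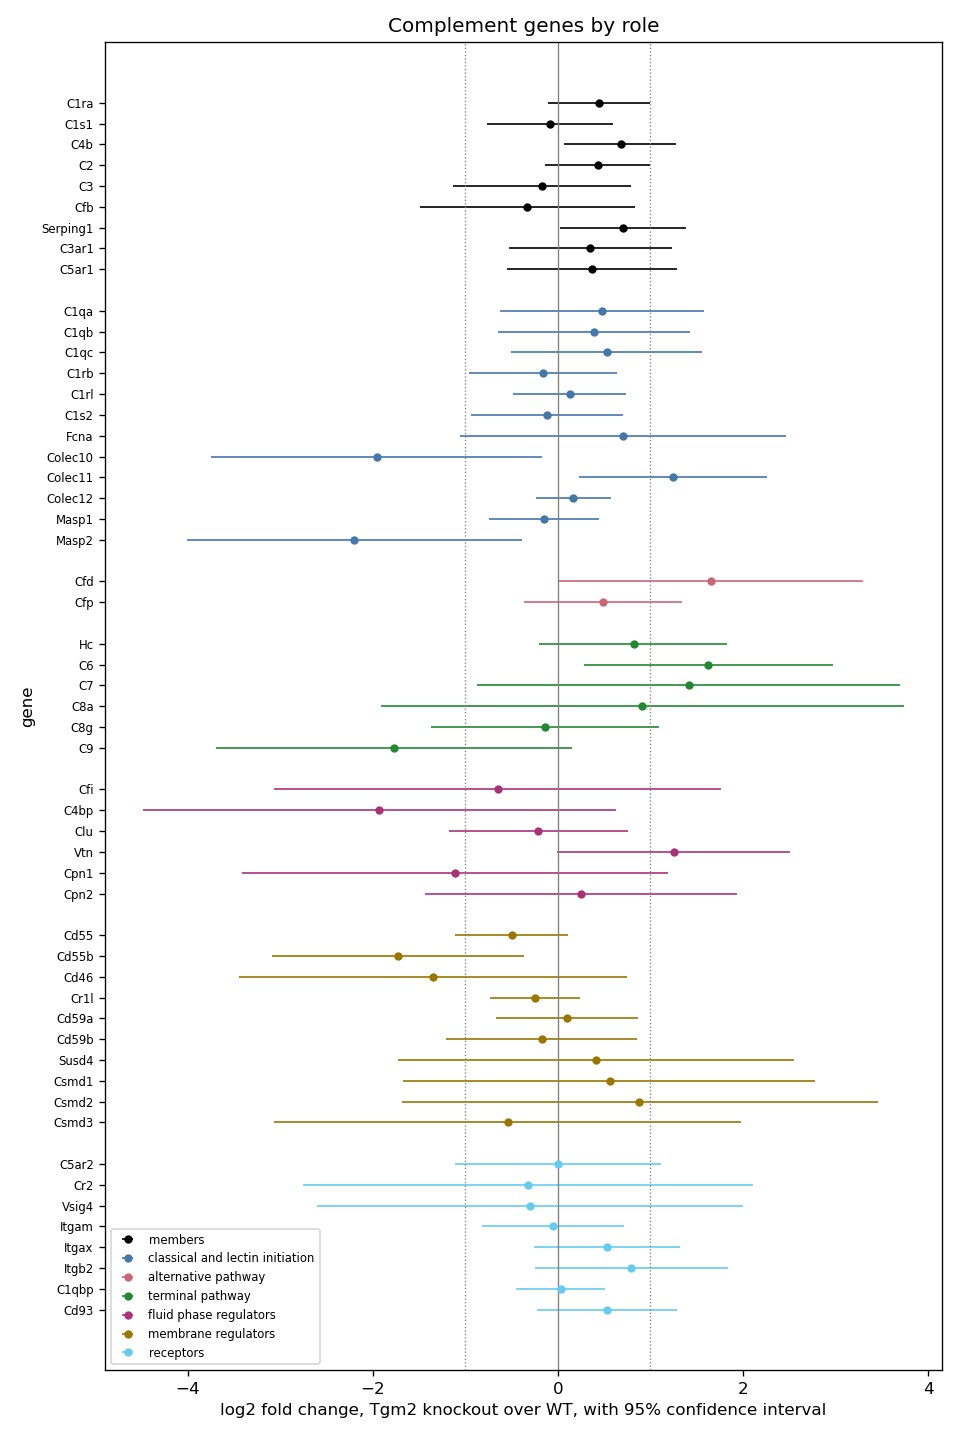
Log2 fold change of Tgm2 knockout over WT tumors with its 95% confidence interval (x axis) for the 9 complement genes (black, called members in the legend) and 44 other complement genes (y axis, colored by role), where dotted lines mark -1 and 1. The intervals of *C4b* and *Serping1*, 0.07 to 1.28 and 0.02 to 1.38, lie above 0 before adjustment over all genes, and those of the other 7 of the 9 genes include 0.

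Part of each *C1ra*, *C1s1*, *C4b*, *C2* and *Cfb* transcript is shared with another gene. In GENCODE M21, 56.9% of the 31-base words of *C1ra* transcripts also occur in *C1rb*, 33.5% of those of *C1s1* in *C1s2* and 48.3% of those of *C4b* in *C4a*. Of the words of *Cfb* and *C2*, 75.5% and 40.2% occur in *Gm20547*, a gene model that shares sequence with both. *C1rb* was 148 to 258 and *C1s2* 259 to 523 in all tumors, and *Gm20547* was 8.56 to 150, far below the genes they resemble. *C4a* was not among the 20076 genes with values, so *C4b* may hold its reads. *C3*, *C5ar1* and *Serping1* shared 0% of their words with other genes.

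Marker genes of cells that can transcribe complement were summed in each tumor. The 15 white adipocyte markers summed to 40789 to 60120 in WT and 61741 to 197761 in knockout tumors, without overlap. Of these 15, 13 had an unadjusted p under 0.05 with a higher mean in knockout tumors and 1, *Lep*, passed the limits. With their mean log2 value as a covariate the log2 fold changes of *C4b*, *Serping1* and *C1ra* were 0.00, -0.04 and 0.06. Those of *C3ar1* and *C5ar1* were -0.97 and -0.87, and that of *C2* was 0.46. *Cfb*, *C1s1* and *C3* had -1.11, -0.69 and -0.34 with the same covariate. This covariate itself did not overlap between the groups (mean log2 value 9.73 to 10.33 in WT and 10.97 to 12.58 in knockout tumors), so in that fit the host genotype and the adipocyte markers cannot be told apart. The 10 macrophage markers summed to 28909 to 51496 in WT and 25563 to 80733 in knockout tumors, and with them as a covariate *C3ar1* and *C5ar1* had -0.21 and -0.19, *C4b* 0.38 and *Serping1* 0.35. The 9 fibroblast markers summed to 86781 to 277410 in WT and 219093 to 252663 in knockout tumors. With their mean log2 value as a covariate *Serping1* had 0.21, *C2* 0.11, *C3* 0.11 and *Cfb* 0.41. That mean was 11.93 to 12.95 in WT and 12.94 to 13.2 in knockout tumors, so the groups barely overlapped in it. In this fit too, the host genotype and the markers can hardly be told apart.
The hepatocyte gene *Alb* was 0 to 23.7 in every tumor, and the liver genes *Serpina1a*, *Apoa2* and *Hpx* were at most 36.5, while *Apoa1* was 16.2 to 249 and *Ahsg* 815 to 3035. In WT tumor 3 *Cdh1* and *Pax8*, like *Epcam*, were higher than in any other tumor (6588 and 1905), and so was the acute phase gene *Lcn2* (17990 against 694 to 2534), and the part of this in the *C3* and *Cfb* values was not tested. The 10 epithelial and ovarian surface markers summed to 65293 to 83082 in WT and 56816 to 62846 in knockout tumors, without overlap. The 7 endothelial markers summed to 4826 to 8342 and 8467 to 9350, also without overlap. Neither of these lists was used as a covariate. The 10 mesothelial markers summed to 69256 to 87865 and 62979 to 73940, the 8 leukocyte markers to 14366 to 23892 and 16108 to 30563, and the 9 neutrophil markers to 484 to 616 and 486 to 1190, with overlap. Of the 10 mesothelial markers, 3 (*Upk1b*, *Krt19*, *Krt8*) lay below WT without overlap and 0 above, where 5.33% and 5.18% of all genes did. The epithelial and mesothelial lists share *Krt8*, *Krt18*, *Krt19*, *Wt1*, *Msln* and *Muc16*, so these lists do not tell the cell types apart. The 15 interferon-stimulated genes had a median log2 fold change of -0.26 with 6 above 0, and the 10 acute phase and NF-kB responsive genes had -0.12 with 3 above 0. The part of these markers in the values of the complement genes was not tested.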

How the data were processed

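RNA from 6 primary tumors (3 WT, 3 *Tgm2* knockout hosts) was compared. The authors quantified transcripts with kallisto 0.46.2 (processing notes, GRCm38), assigned transcripts to genes with biomaRt annotation, filtered weakly expressed genes out and scaled the values by DESeq2 size factors; the Ensembl release and the expression limit are not given in the sources used here. The deposited values are a signal, normalized estimated counts; the table is named TPM, but its column sums of 32316613 to 37717165 differ between tumors. Since they are not whole counts, limma 3.58.1 in R 4.3.3 was fitted to log2(value + 1) of genes at 1 or more in at least 3 tumors, with a variance trend, no covariate, two-sided tests and Benjamini-Hochberg adjustment over 19667 genes. An exact permutation test of 3 against 3 tumors cannot give p below 0.1. The members and gene lists were chosen with earlier results of these data known. Genes named were the 9 members, other complement genes with an unadjusted p under 0.05, the 3 highest by mean in each role list (of which 1 is not reported here), paralogs, *Tgm2*, and the 5 genes most like the members; markers were named after their values were seen. Transcript lengths and positions came from GENCODE M21 (GRCm38), promoters from RefSeq GRCm38.p6, and Python 3.11.15 with SciPy 1.17.1 was used for tables. The fit was tested on simulated data. Alternatives changed the pseudocount, filter, scaling, replicate block, tumor weights, variance trend, thresholds and covariates, and left out each tumor.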

Additional observations from a re-analysis of the deposited data

How the results depend on the processing

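None of the 9 complement genes passed the limits in the 19 alternative fits, and the lowest adjusted p of any of them in limma was 0.607. Over the 9 genes and 19 fits, 156 of 171 log2 fold changes kept their sign and 15 changed it. *Serping1* had -0.04 with the adipocyte covariate. *C3ar1* and *C5ar1* had -0.97 and -0.87 with the adipocyte covariate, -0.21 and -0.19 with the macrophage covariate, and -0.21 and -0.19 with the fibroblast covariate. *C3* and *Cfb* had 0.11 and 0.41 with the fibroblast covariate. Without 1 tumor, *C1s1* ranged from -0.23 to 0.08, *C3* from -0.44 to 0.07, and *Cfb* from -0.67 to 0.23. The median of the 9 was -0.19 with the macrophage, -0.34 with the adipocyte and 0.11 with the fibroblast covariate, and 0.10 to 0.63 without 1 tumor. Genes without overlap numbered 3 of the 9 (*C1ra*, *C4b*, *Serping1*) after quantile normalization (11.1% of all genes) and with equal column sums (10.4%). They numbered 1 (*C1ra*) after median-of-ratios rescaling (10.5% of all genes). Without 1 tumor they numbered 1 to 4 (4 without WT tumor 1 and 4 without knockout tumor 1), where 17.4% to 24.9% of all genes did not overlap. The count of all genes past the limits was 4 without the variance trend, 4 with the fibroblast covariate, 0 with the adipocyte covariate (limma, with 1792 genes at an unadjusted p under 0.05), 796 at an unadjusted p with the fold limit, and 2 to 14 without 1 tumor, namely 8, 2 and 13 without WT tumors 1, 2 and 3 and 11, 11 and 14 without knockout tumors 1, 2 and 3. Of the other complement genes, 6 had an unadjusted p under 0.05 with the fold limit. The labels do not state that the replicate numbers mark pairs. Same-numbered tumors had correlations of -0.20, 0.28 and -0.31 in their deviations from the group means. With 3 tumors per group these values cannot decide whether the tumors were paired. The replicate block left 5 genes and 0 of the 9 past the limits. *Tgm2* stayed between -1.17 and -0.93. The 3 tumors per group limit every comparison.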
